A study of Mus musculus with 6 samples.

Results

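The genes described here are the nuclear-encoded protein importers of mitochondria (Timm and Tomm genes) and the mitochondrial solute carriers of the Slc25a family. They were chosen by symbol: every gene whose current symbol begins with Timm, Tomm or Slc25a and a digit, and that has a probe set annotated to exactly 1 gene, was a member. This gave 67 of the 18193 genes on the array, 23 importers and 44 carriers, and where a gene had several probe sets the brightest was used. Importers and carriers were read apart.

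RNA was compared between 2 populations sorted from the ventricular-subventricular zone (V-SVZ) of adult mice, the stem cell layer along the lateral ventricles of the brain. Activated neural stem cells carried GFAP::GFP, a reporter driven by the promoter of the astrocyte and stem cell gene Gfap, stained for CD133 and EGFR and lacked CD24. Quiescent neural stem cells carried GFAP::GFP, stained for CD133 and lacked CD24, and no EGFR criterion is written in their label. Both were therefore selected on the same reporter, which marks astrocytes as well as stem cells. Each was measured on 3 one-colour arrays, named as biological replicates in the labels, and with so few arrays the precision of all values is low. The sources used here do not give age, sex, strain or pooling of animals.

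Most mitochondrial proteins are made in the cytosol. They enter through the TOM complex of the outer membrane, and those with an N-terminal presequence pass on through the TIM23 complex of the inner membrane, while carrier proteins are escorted by small Tim chaperones to the TIM22 complex, which inserts them. The Slc25 carriers are themselves inner-membrane proteins that travel by this second route for the most part, and most exchange nucleotides, amino acids, organic acids, cofactors or ions between cytosol and matrix. In brain, the aspartate-glutamate carriers take part in the shuttle that moves reducing equivalents into mitochondria, and the carnitine carrier serves fatty acid oxidation.

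Values are log2 MAS5 signals, and each difference is activated minus quiescent on that scale, with its SE and a Benjamini-Hochberg adjusted p from a limma fit over all 11576 genes bright enough to be tested. A gene is called changed at an adjusted p under 0.05. Of all tested genes, 2004 were called higher (17.3%) and 2040 lower (17.6%) in activated cells, 34.9% in either direction, with a median difference of 0.01. The 3 activated arrays all lay above the 3 quiescent arrays for 25.1% of genes and below them for 25.5%. Signals of different probe sets are not comparable as levels, so only differences are set side by side between genes. In sorted bulk RNA, fewer cells of a type and less RNA per cell cannot be told apart.

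Several other measures moved with the groups. Egfr, the gene behind the activated sort, was 12.9 ± 0.15 on activated and 10.8 ± 0.14 on quiescent arrays (SD, n = 3 each). Gfap was 6.67 ± 1.07 on activated and 10.9 ± 0.71 on quiescent arrays, and Cd24a was 13.4 ± 0.12 and 9.26 ± 1.24, although both sorts took GFAP::GFP+ cells without CD24. Array background was 4.60 ± 0.07 against 5.67 ± 0.37, and the 3′ minus 5′ Gapdh signal, a sign of RNA degradation, was 1.37 ± 0.17 against 2.05 ± 0.52 (two-sided exact permutation p = 0.1 for each, the smallest that 3 against 3 arrays allow). The same measure for actin was 0.07 ± 0.16 against -0.05 ± 0.16 (exact permutation p = 0.4), and the hybridisation controls, added in equal amounts, were 13.7 ± 0.05 against 14.3 ± 0.53 (exact permutation p = 0.1). All 11 tested cell cycle markers were called higher, with summed linear signals of 70550 to 77293 on activated and 5331 to 15171 on quiescent arrays. Sums in this paragraph are over all listed markers with a probe set, tested or not. These were 11 endothelial, 9 pericyte, 9 mature neuron, 12 ependymal and 10 microglia genes. All 14 quiescent stem cell and astrocyte markers were lower (44772 to 53468 against 200671 to 309683), as were all 11 tested oligodendrocyte markers (2457 to 6465 against 22696 to 89044), 3 of 5 endothelial markers (408 to 459 against 1645 to 4902) and 4 of 5 pericyte markers (391 to 669 against 5070 to 9091). Neuroblast markers were higher in 5 of 10 (40095 to 46720 against 4959 to 10602) and mature neuron markers in 2 of 4 (1817 to 3328 against 1027 to 1838). The called neuron markers, Rbfox3 and Syn1, had quiescent means of 4.32 and 4.25, below the brightness required for testing. Both therefore entered the test through their activated arrays, which favours a difference, and the arrays of Syn1 overlapped. Of the 4 tested neuron markers 3 differences were positive and 1 negative (Camk2a, -1.30). Among the untested ones, arrays lay wholly apart only for Syt1, which was lower (3.81 against 6.31). Of 5 tested ependymal markers 3 were lower and 1 higher (1932 to 2869 against 1928 to 2336), and the 1 tested microglia marker was not called (162 to 212 against 446 to 759). The higher ependymal marker was Dnah11 (difference 4.10), which made up most of the activated ependymal sums. Differences of the other 4 tested ependymal markers were negative, at -0.80 to -3.59. Hydin (ependymal) and Tmem119, Aif1, C1qa and C1qc (microglia) were at background on all 6 arrays, and Pecam1, Tek, Kdr, Emcn and Tie1 (endothelial) on all 3 activated arrays. The part of these measures in the results below was not tested.

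The importers were shifted towards activated cells. Of the 21 tested, 7 were called higher (33.3%, against 17.3% of all genes) and 0 lower by limma. At an unadjusted p under 0.05, 13 of 21 were higher and 0 lower, against 2659 and 2665 of all 11576 genes, and 18 of the 21 differences were positive (85.7%, against 50.3%). The activated arrays lay wholly above the quiescent arrays for 13 importers (61.9%, against 25.1% of all genes) and wholly below them for 0. The median difference was 0.76, with a range of -0.27 to 2.29. Importer probe sets were bright, with medians of 10.54 to 10.83 on activated arrays, against 9.28 to 9.31 for all tested genes. The median difference of all genes was -0.39 with no filter. With a filter at the 60th percentile it was 0.14, and 20.8% of genes were called higher. The part of brightness in the importers' shift was not tested. The 7 were Timm50, Timm17b, Timm8b, Timm10b, Tomm20, Timm10 and Tomm40, which between them cover the outer membrane channel and receptor, the presequence route and the chaperone route. The number called was 3 without activated array 1, 4 without activated array 2 and 14 when arrays were scaled to their hybridisation controls, and the importers' median was 1.41 under that scaling, where the median of all genes was 0.66. Without the probe sets that can match several transcripts, on which 12 of the 23 importers were read, the importers' median was 0.50.

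**Figure D1:**
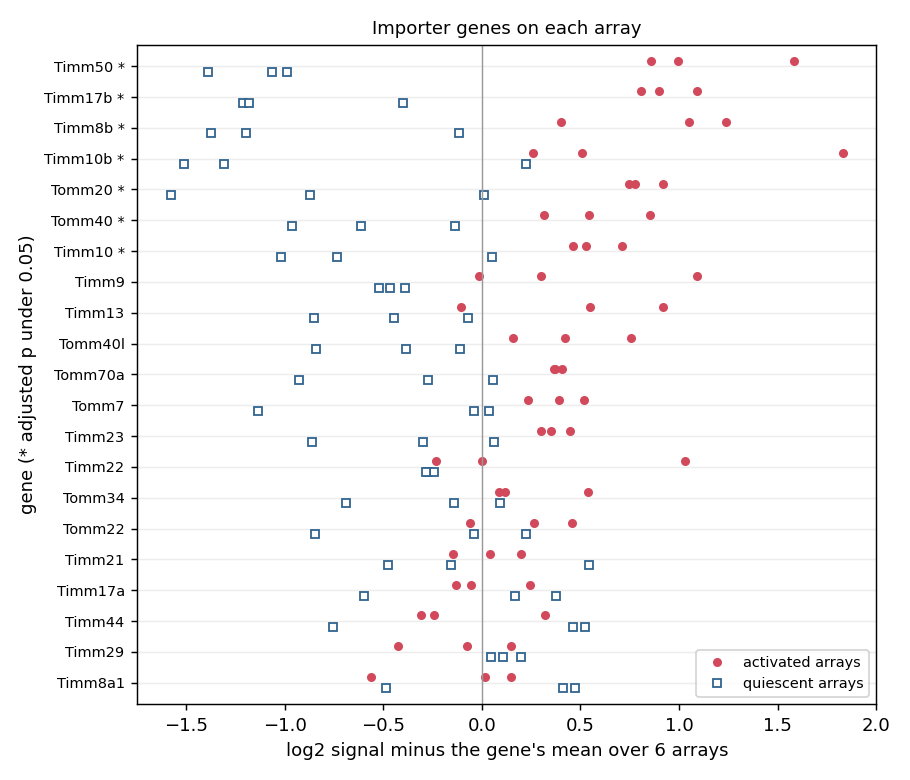
Log2 signal of each tested importer on each array, minus that gene's mean over the 6 arrays (horizontal axis), with 1 row per gene ordered by difference and an asterisk at an adjusted p under 0.05. Filled circles are the 3 activated arrays and open squares the 3 quiescent arrays, and the circles lie wholly to the right of the squares in 13 of 21 rows.

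In the outer membrane, Tomm20, a receptor that binds presequences, read 12.62, 12.79 and 12.65 on the activated arrays, against 10.30, 11.01 and 11.89 on the quiescent arrays. The activated arrays were tightly grouped and all higher, and the quiescent arrays were spread. The difference was 1.63 ± 0.36 (3.09-fold, adjusted p = 0.00647), and Tomm20 was called under all 17 alternatives run. Tomm40, which forms the channel, read 9.92, 10.23 and 9.69 in activated cells, against 8.41, 8.76 and 9.24 in quiescent cells. Its groups did not overlap and differed by 1.14 ± 0.36 (adjusted p = 0.0321), but the call was lost without activated array 1, 2 or 3 or without quiescent array 1 or 2 (adjusted p = 0.0596 to 0.129). All 7 tested TOM genes had positive differences, 2 of them called. The others were Tomm40l, a second channel gene (0.89, adjusted p = 0.0815), Tomm70a, the receptor that takes up carrier proteins (0.76, adjusted p = 0.0713), the small subunit Tomm7 (0.76, adjusted p = 0.0908), the cytosolic chaperone partner Tomm34 (0.49) and the central receptor Tomm22 (0.44).

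In the TIM23 complex, Timm50, the inner-membrane receptor for presequences, had the largest importer difference. It read 10.69, 9.96 and 10.10 on the activated arrays, against 7.72, 8.04 and 8.12 on the quiescent arrays. The groups were far apart, at 2.29 ± 0.37 (4.91-fold, adjusted p = 0.00104). A second probe set of Timm50 above the brightness threshold differed by 0.04, and using it in place of the first, a probe set of the kind whose probes match several transcripts, ended the call (adjusted p = 0.967). Timm17b, a channel subunit that partners Timm23, read 11.96, 12.05 and 12.24 in activated cells, against 9.94, 9.97 and 10.75 in quiescent cells. Its difference was 1.86 ± 0.30 (adjusted p = 0.000981) and was called under all 17 alternatives. Timm23 itself differed by 0.73 ± 0.28 with its arrays apart (adjusted p = 0.0668), and was called without quiescent array 1 (adjusted p = 0.0261). Timm21, a further subunit, differed by 0.06, and Timm44, which anchors the import motor, by -0.15.

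Among the small Tim chaperones, Timm8b read 10.35, 10.17 and 9.51 in activated cells, against 7.74, 7.92 and 9.0 in quiescent cells. It was higher by 1.79 ± 0.44 (adjusted p = 0.0102), with an adjusted p of 0.0515 without activated array 1. Timm10, which works in a complex with Timm9, read 10.67, 10.85 and 10.60 in activated cells, against 9.40, 10.19 and 9.12 in quiescent cells. The difference was 1.14 ± 0.34 (adjusted p = 0.0266), and the call was lost without activated array 1, 2 or 3 or without quiescent array 1 (adjusted p = 0.0666 to 0.0965). Timm10b, the small Tim that docks on the TIM22 complex, read 10.77, 9.45 and 9.19 in activated cells, against 7.42, 7.63 and 9.16 in quiescent cells, so the closest arrays of the 2 groups nearly met. Its difference of 1.73 ± 0.57 (adjusted p = 0.0369) was lost without activated array 1 or 2 or quiescent array 1 or 2, when its probe sets were averaged (adjusted p = 0.465) and without a variance trend (adjusted p = 0.0582), and its 4 bright probe sets differed by 1.73, 1.17, 1.10 and -1.99. Timm9 differed by 0.92 (adjusted p = 0.101) and Timm13 by 0.91 (adjusted p = 0.0778). In the TIM22 complex, Timm22, its core subunit, differed by 0.53 and Timm29 by -0.23.

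Timm8a2 and Tomm20l were too dim to be tested. Tomm5 and Tomm6 had only probe sets of several genes and are not members.

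Carriers were called in both directions. Of the 41 tested, 5 were called higher (12.2%, against 17.3% of all genes) and 5 lower (12.2%, against 17.6%), and the median difference was -0.10 with a range of -4.93 to 3.53. Differences were positive for 19 and negative for 22. The arrays did not overlap for 7 carriers that were higher (17.1%, against 25.1%) and 10 that were lower (24.4%, against 25.5%), shares at or below those of all genes. The median was 0.55 with hybridisation-control scaling and 0.03 with quantile normalization, so its sign depended on the scaling, and it was -0.43 without the probe sets that can match several transcripts. For 6 of the 41 the mean of one group was below the brightness threshold of 6.02, so they were tested through the brighter group alone. Of these Slc25a13 and Slc25a34 were called and Slc25a2, Slc25a35, Slc25a41 and Slc25a45 were not. The number higher was 1 without activated array 2, and 2 without activated array 3, quiescent array 1 or quiescent array 2. The number lower was 3 without activated array 1 or 3, and 1 without quiescent array 2.

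**Figure D2:**
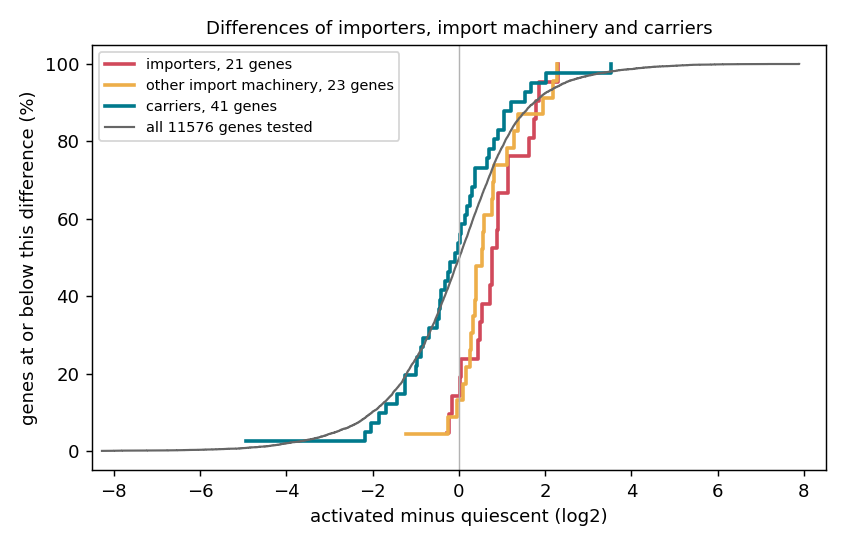
Share of genes (vertical axis, percent) at or below each log2 difference, activated minus quiescent (horizontal axis), with a stepped line each for the 21 importers, the 23 other import genes and the 41 carriers and a thin line for all 11576 tested genes. The importer line starts at -0.27, has its median at 0.76 and lies to the right of the line for all genes over most of its height, while the carrier line has its median at -0.10 and spans -4.93 to 3.53.

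Both aspartate-glutamate carriers, which serve the malate-aspartate shuttle, were higher in activated cells. Slc25a13 read 8.49, 8.66 and 7.65 on the activated arrays, against 2.99, 5.16 and 6.07 on the quiescent arrays. The groups were widely separated, but 2 of the 3 quiescent values were at array background, so the size of the difference is imprecise (3.53 ± 0.81, adjusted p = 0.00719). With a quiescent mean of 4.74, Slc25a13 entered the test through its activated arrays, which favours a difference. Slc25a12 read 10.04, 10.68 and 10.66 in activated cells, against 7.05, 8.49 and 9.76 in quiescent cells. It was higher by 2.03 ± 0.59 (adjusted p = 0.0221), and the call was lost without activated array 2 or 3 or quiescent array 1 or 2 (adjusted p = 0.0505 to 0.0751). The 2 dimmer probe sets of Slc25a12 differed by -1.23 and -0.25, and the mean of the 3 differed by 0.18 (adjusted p = 0.770).

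Of the other carriers that were higher, Slc25a10, the dicarboxylate carrier, read 8.67, 8.98 and 9.46 in activated cells, against 7.24, 7.21 and 8.07 in quiescent cells. The arrays were apart, with a difference of 1.53 ± 0.45 (adjusted p = 0.0244), called no longer without activated array 2 or 3 or quiescent array 1 or 2. Slc25a39, needed for glutathione uptake into mitochondria, read 11.73, 12.18 and 11.89 in activated cells, against 10.67, 10.36 and 11.14 in quiescent cells. The difference was 1.21 ± 0.29 (adjusted p = 0.00892), and its 4 bright probe sets differed by 0.90 to 2.36. Without activated array 2 the adjusted p was 0.05005, just past the threshold. Slc25a5, the ADP/ATP carrier also called Ant2, read 13.12, 13.25 and 13.16 in activated cells, against 11.46, 12.09 and 12.83 in quiescent cells. It was higher by 1.05 ± 0.33 (adjusted p = 0.0296) and all 8 of its bright probe sets were higher, by 0.62 to 1.68, yet the call was lost in 8 of 17 alternatives, among them leaving out any single activated array, quiescent array 1 or quiescent array 2 (adjusted p = 0.0648 to 0.0967). Only the probe set at 0.62 is not of the kind that can match several transcripts, and its arrays overlapped. Using it ended the call, and the largest adjusted p over the alternatives was 0.393.

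Among carriers that were lower in activated cells, Slc25a34, whose substrate is poorly known, had the most negative fitted difference. It read 4.07, 5.53 and 5.35 on the activated arrays, against 10.60, 10.23 and 8.92 on the quiescent arrays. The groups lay far apart and activated array 1 was at background. The difference was -4.93 ± 0.63 (adjusted p = 0.000271), imprecise in size, and with an activated mean of 4.98 the gene entered the test through its quiescent arrays. Slc25a20, the carnitine-acylcarnitine carrier of fatty acid oxidation, read 8.75, 10.33 and 10.08 in activated cells, against 11.33, 11.95 and 10.95 in quiescent cells. Both of its bright probe sets were lower with arrays apart, the brighter by -1.69 ± 0.44 (adjusted p = 0.0132, and 0.0588 without quiescent array 2). Slc25a18, a glutamate carrier found in astrocytes, read 8.13, 9.06 and 8.66 in activated cells, against 9.81, 10.14 and 9.66 in quiescent cells. It fell by 1.25 ± 0.38 (adjusted p = 0.0256, lost without activated array 1 or 3 or quiescent array 2). With it, 14 of 14 astrocyte and quiescent stem cell markers were lower, and the part of cell composition was not tested.

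Slc25a33, a pyrimidine nucleotide carrier, read 8.52, 8.64 and 8.26 in activated cells, against 9.94, 9.94 and 9.31 in quiescent cells. The activated arrays were all lower, by -1.26 ± 0.37 (adjusted p = 0.0221), and the call was lost without activated array 1 or 3 or quiescent array 1 or 2. Slc25a42, which carries coenzyme A, read 5.56, 5.80 and 7.33 in activated cells, against 7.13, 8.99 and 9.09 in quiescent cells. Its arrays overlapped, and its difference of -2.17 ± 0.70 (adjusted p = 0.0352) was lost without activated array 1 or 2 or quiescent array 2 or 3, and under quantile normalization (adjusted p = 0.0746). A dimmer probe set of Slc25a42, also above the brightness threshold, differed by -2.92 with arrays apart. With hybridisation-control scaling, Slc25a20, Slc25a18, Slc25a33 and Slc25a42 were not called (adjusted p = 0.147 to 0.371).

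**Figure D3:**
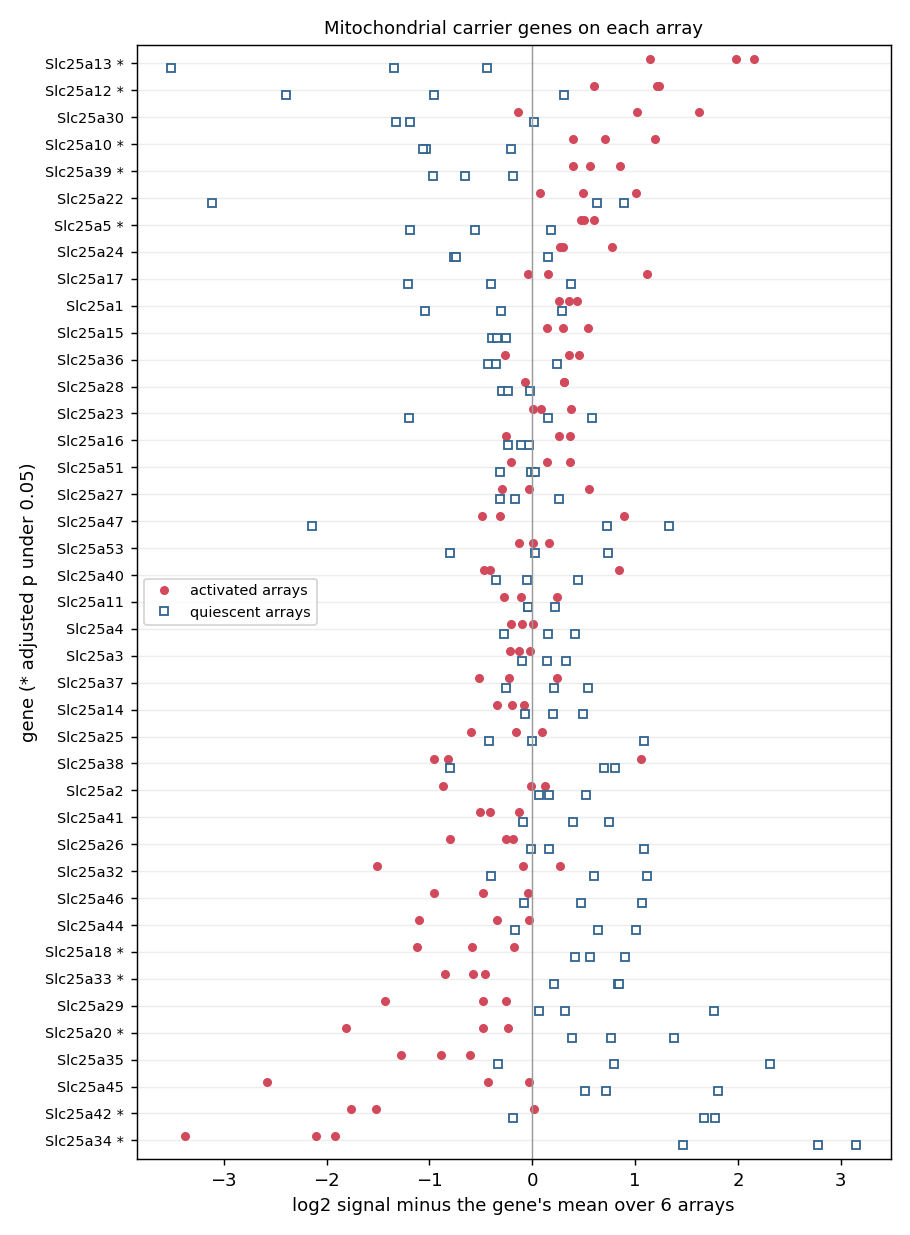
Log2 signal of each tested carrier on each array, minus that gene's mean over the 6 arrays (horizontal axis), ordered from the most positive to the most negative difference, with an asterisk at an adjusted p under 0.05. Filled circles are the 3 activated and open squares the 3 quiescent arrays. Slc25a13 at the top and Slc25a34 at the bottom separate the groups most widely, and most rows between them overlap.

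The remaining 31 tested carriers were not called, with differences of -2.03 to 1.67. Closest to the threshold were Slc25a46, an outer-membrane protein linked to mitochondrial shape (-0.98, adjusted p = 0.0504), and Slc25a30, related to the uncoupling proteins (1.67, adjusted p = 0.0506). Each was called under 10 of 17 alternatives, quantile normalization and both pseudocounts among them. Slc25a45, Slc25a35 and Slc25a29, the last a carrier of basic amino acids, differed by -2.03, -1.85 and -1.44 with arrays apart (adjusted p = 0.0656, 0.0729 and 0.0843). The phosphate carrier Slc25a3 differed by -0.24 and Slc25a4, the ADP/ATP carrier of heart and muscle also called Ant1, by -0.20. A dimmer probe set of Slc25a3 differed by -1.88 with arrays apart, and Slc25a3 was called with the mean of its probe sets. Amino and organic acid carriers not called included Slc25a15 for ornithine (0.65, arrays apart), Slc25a1 for citrate (0.70), Slc25a11 for oxoglutarate and malate (-0.10), Slc25a38 for glycine (-0.47), Slc25a44 for branched-chain amino acids (-0.98) and Slc25a2, an ornithine carrier (-0.50). Cofactor carriers not called were Slc25a51 for NAD (0.20), Slc25a32 for folate (-0.88), Slc25a26 for S-adenosylmethionine (-0.83), Slc25a16 (0.25) and Slc25a17 of peroxisomes (0.82). The iron carriers Slc25a28 and Slc25a37 differed by 0.36 and -0.33, and the ATP-magnesium/phosphate carriers Slc25a23, Slc25a24, Slc25a25 and Slc25a41 by 0.31, 0.90, -0.44 and -0.70. Slc25a22 (1.06 ± 0.96) and Slc25a47 (0.06 ± 0.85) each had 1 quiescent array at background, Slc25a45 had 1 activated array there, and Slc25a53 differed by 0.03. Of the relatives of the uncoupling proteins beside Slc25a30, Slc25a14 differed by -0.41 with arrays apart and Slc25a27 by 0.15. Slc25a31, Slc25a48 and Slc25a54 were too dim to be tested.

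Related genes were compared within each array, as the log2 signal of one minus the other. Of 16 such pairs with both genes tested, 7 had activated and quiescent arrays wholly apart, each at an exact permutation p of 0.1, the smallest possible, and 0.229 after adjustment over the pairs. Among all tested single genes, arrays lay wholly apart for 25.1% (higher) and 25.5% (lower). No such share was computed for gene pairs, so 7 of 16 is not read as more than usual. Each of the 7 pairs also includes a gene already called above. Timm17a minus Timm17b, both partners of Timm23, differed by -1.83 between the groups, and Timm17a itself differed by 0.04 (95% interval -0.65 to 0.72). Timm8a1 minus Timm8b differed by -2.06, with Timm8a1 itself at -0.27 (95% interval -0.98 to 0.45). Slc25a4 minus Slc25a5 differed by -1.25, and the bright probe sets of Slc25a4 differed by -0.18 to -2.74, where those of Slc25a5 were all higher. The probe set of Slc25a4 at -2.74 was called when used in place of the brightest (adjusted p = 0.0259).

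The remaining pairs with separate arrays were all carriers. Slc25a18 minus Slc25a22, both glutamate carriers, differed by -2.31, where 1 quiescent value of Slc25a22 was at background. Slc25a33 minus Slc25a36, both pyrimidine nucleotide carriers, differed by -1.62, and Slc25a36 itself by 0.37. Dimmer probe sets of Slc25a36 differed by 0.63 and 1.49, both with arrays apart. Slc25a12 minus Slc25a13 differed by -1.50, with the dimness of Slc25a13 on quiescent arrays noted above, and Slc25a39 minus Slc25a40 by 1.24, with Slc25a40 at -0.03. Arrays overlapped for the other 9 pairs, which included Timm10 with Timm10b (-0.60), Tomm40 with Tomm40l (0.25), Slc25a28 with Slc25a37 (0.69) and Slc25a14 with Slc25a27 (-0.56).

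**Figure D4:**
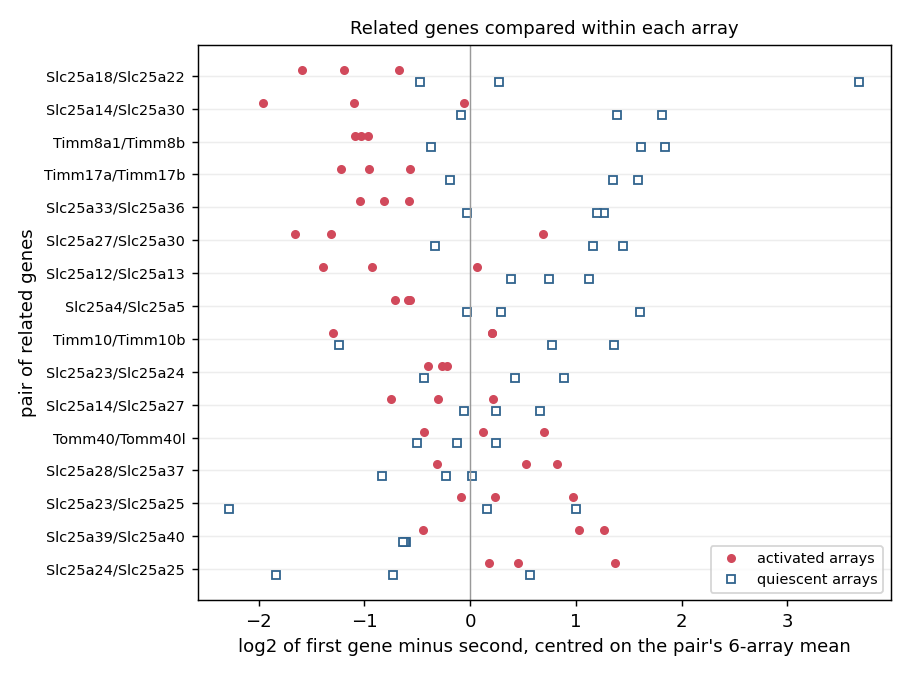
For each pair of related genes, the log2 signal of the first minus the second on each array, centred on the pair's mean over the 6 arrays (horizontal axis). Filled circles are activated and open squares quiescent arrays. Timm17a/Timm17b and Timm8a1/Timm8b are among the 7 of 16 rows in which the groups do not overlap.

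Probe sets of the same gene did not always move together. Of 32 members with at least 2 probe sets above the brightness threshold, all probe sets were higher for 11, all lower for 9, and signs were mixed for 12. Tomm20 had 6, of which 5 were higher by 1.45 to 2.35 and 1 differed by -1.20 with its arrays apart. Both probe sets of Timm17b were higher with arrays apart (1.55 and 1.86), and all 3 of Tomm7 were (0.76 to 1.89). Tomm22 differed by 0.44 on its brightest and by 1.99 on its other probe set, which was called when used in its place (adjusted p = 0.00417), and the 5 of Tomm70a ranged from -0.28 to 2.17. The 4 probe sets of Slc25a29 were all lower (-1.44 to -2.16).

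**Figure D5:**
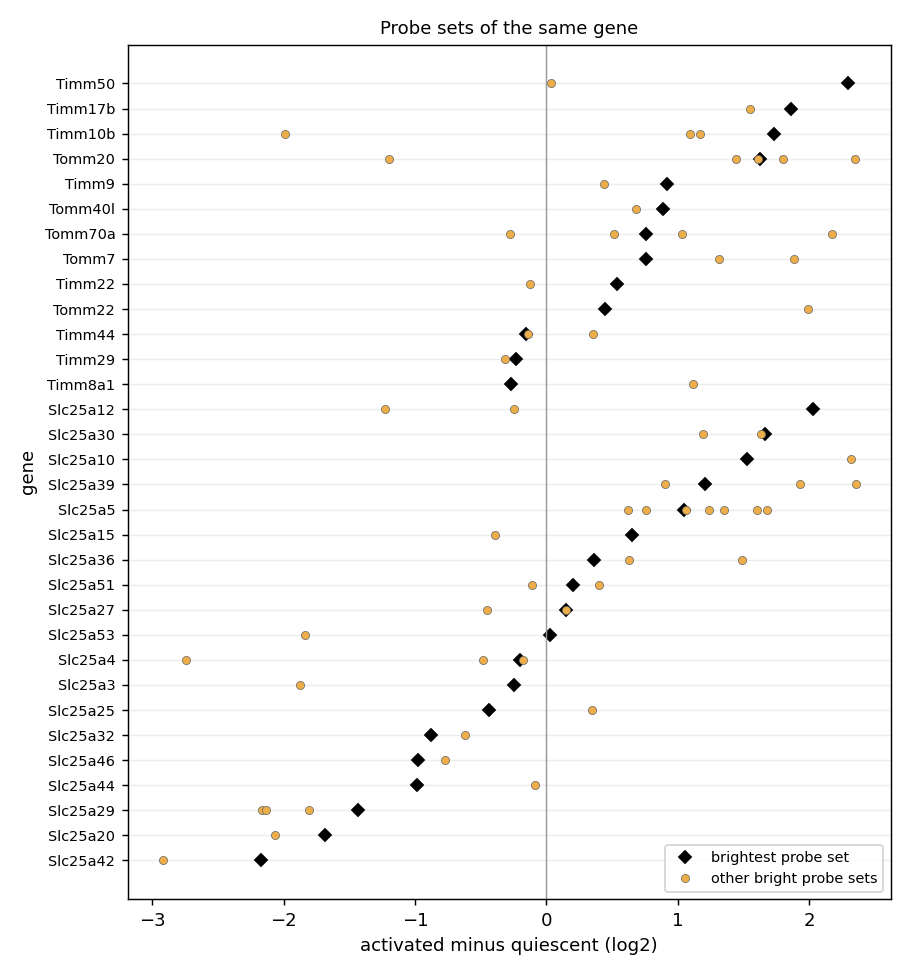
Difference of each probe set above the brightness threshold, activated minus quiescent in log2 units (horizontal axis), for the 32 members with at least 2. Black diamonds are the brightest probe set of each gene, the one used in the test, and orange points the others. Slc25a5 and Slc25a39 lie wholly above 0, while Timm10b, Tomm20 and Slc25a12 have probe sets on both sides.

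The order of arrays within each group was read as well. Quiescent array 3 was the highest quiescent array for 6 of the 7 called importers and for all 5 carriers called higher. Activated array 2 was the highest activated array for 4 of those 5 carriers and for 4 of the 5 called lower. Over all 41 tested carriers activated array 2 was the highest activated array in 22, and quiescent array 3 the highest quiescent array in 19. Over all tested importers the highest quiescent array was array 1 in 7, array 2 in 8 and array 3 in 6. This order was not counted over all tested genes, so it cannot be called particular to these members. The median of all tested genes was 9.19, 9.17 and 9.29 on quiescent arrays 1, 2 and 3. On activated arrays 1, 2 and 3 it was 9.28, 9.31 and 9.30.

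Import genes outside the symbol rule were read from the same fit. Of 25 listed, 23 were tested, with 5 called higher (21.7%, against 17.3% of all genes), 1 lower (4.35%, against 17.6%), 20 positive differences and a median of 0.53. The share called higher was near that of all genes. Positive differences made up 87.0%, against 50.3% of all genes. The activated arrays lay wholly above the quiescent arrays for 10 of the 23, against 25.1% of all genes. They lay wholly below them for 1, against 25.5%. Romo1, part of the TIM23 complex, read 12.76, 12.93 and 12.70 in activated cells, against 9.92, 9.89 and 11.79 in quiescent cells (2.27 ± 0.45, adjusted p = 0.00350). Dnajc15, a J-protein of the import motor, differed by 2.17 ± 0.49 (adjusted p = 0.00669) and Cox18, an inner-membrane insertase, by 1.96 ± 0.60 (adjusted p = 0.0274). The arrays of Cox18 overlapped, and its call was lost without activated array 2 or 3 or quiescent array 1 or 2 (adjusted p = 0.0777 to 0.120). Mtx3, an outer-membrane metaxin, was lower by -1.23 ± 0.35 (adjusted p = 0.0212). Without activated array 2 the number higher was 3, and the call of Mtx3 was lost without activated array 2 or 3 or quiescent array 1, without a variance trend and with hybridisation-control scaling.

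Other transport genes of mitochondrial membranes lay on both sides of 0. Of 27 listed, 21 were tested, with 2 called higher (9.52%, against 17.3% of all genes), 4 lower (19.0%, against 17.6%) and a median of -0.03. Mtch1, an outer-membrane relative of the carriers, was higher by 1.38 ± 0.33 (adjusted p = 0.00866) and Vdac3, an outer-membrane pore, by 0.82 ± 0.29 (adjusted p = 0.0494). The call of Vdac3 was lost under quantile normalization, no filter, no variance trend and the replicate block. Sfxn5, a sideroflexin, read 10.68, 9.57 and 9.95 in activated cells, against 13.52, 13.19 and 12.91 in quiescent cells, wholly lower (-3.14 ± 0.33, adjusted p = 0.000102). Slc8b1, the mitochondrial sodium-calcium exchanger, was lower by -2.52 ± 0.50 (adjusted p = 0.00335). Ucp3, an uncoupling protein, was lower by -2.30 ± 0.57 (adjusted p = 0.0107, and 0.0538 with hybridisation-control scaling). Their activated means, 5.95 for Slc8b1 and 5.81 for Ucp3, were below the brightness threshold. Both therefore entered the test through their quiescent arrays, which favours a difference. Without quiescent array 3 the number lower was 7, and the number higher was 1 when any single activated array, quiescent array 1 or quiescent array 3 was left out.

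Promoter windows of 300 bases, from 250 before to 50 after the annotated start, were read from RefSeq (GRCm38.p6) for 18 of the 21 tested importers and 31 of the 41 tested carriers. They were searched on both strands for the cores of 3 factor families known to act at nuclear genes for mitochondrial proteins or at growth-related genes: NRF1 (GCGCATGC), ETS (CCGGAAGT) and the E-box (CACGTG). No motif shares its full letters with another. Only these exact letters were counted, so sites that differ from them by a base were missed, and a window without a match may hold one. The 6 windows printed belong to the largest differences in each family and to some of the called genes that hold a match, and were chosen after values were seen. Timm10b (ETS core) and Slc25a33 (E-box), also called, hold a match and are not printed. Capitals mark matches.
Timm50: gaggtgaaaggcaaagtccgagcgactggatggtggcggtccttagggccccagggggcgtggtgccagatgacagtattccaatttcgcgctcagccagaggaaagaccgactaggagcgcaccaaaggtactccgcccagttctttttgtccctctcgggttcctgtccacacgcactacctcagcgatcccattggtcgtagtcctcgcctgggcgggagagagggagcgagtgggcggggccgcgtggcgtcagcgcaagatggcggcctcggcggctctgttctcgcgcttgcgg
Tomm20: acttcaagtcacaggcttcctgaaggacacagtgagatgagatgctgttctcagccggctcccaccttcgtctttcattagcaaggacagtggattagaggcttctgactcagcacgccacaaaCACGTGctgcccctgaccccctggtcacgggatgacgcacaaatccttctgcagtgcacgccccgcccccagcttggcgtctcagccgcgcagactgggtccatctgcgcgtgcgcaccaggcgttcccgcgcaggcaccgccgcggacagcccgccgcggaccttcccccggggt
Timm10: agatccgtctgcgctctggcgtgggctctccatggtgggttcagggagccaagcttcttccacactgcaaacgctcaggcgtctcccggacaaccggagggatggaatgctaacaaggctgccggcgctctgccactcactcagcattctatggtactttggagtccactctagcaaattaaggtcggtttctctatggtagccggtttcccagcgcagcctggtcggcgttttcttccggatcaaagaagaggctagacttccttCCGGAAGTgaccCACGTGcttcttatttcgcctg
Slc25a13: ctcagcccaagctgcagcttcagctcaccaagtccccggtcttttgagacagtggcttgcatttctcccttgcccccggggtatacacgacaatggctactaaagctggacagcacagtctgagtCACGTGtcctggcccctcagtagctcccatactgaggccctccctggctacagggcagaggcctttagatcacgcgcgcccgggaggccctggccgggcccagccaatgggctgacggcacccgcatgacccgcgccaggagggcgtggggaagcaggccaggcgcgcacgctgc
Slc25a20: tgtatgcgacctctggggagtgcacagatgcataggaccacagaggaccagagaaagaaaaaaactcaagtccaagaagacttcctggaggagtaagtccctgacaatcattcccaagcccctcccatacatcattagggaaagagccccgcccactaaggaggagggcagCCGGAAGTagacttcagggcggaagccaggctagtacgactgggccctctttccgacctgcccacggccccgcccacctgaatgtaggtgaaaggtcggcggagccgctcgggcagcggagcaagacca
Slc25a34: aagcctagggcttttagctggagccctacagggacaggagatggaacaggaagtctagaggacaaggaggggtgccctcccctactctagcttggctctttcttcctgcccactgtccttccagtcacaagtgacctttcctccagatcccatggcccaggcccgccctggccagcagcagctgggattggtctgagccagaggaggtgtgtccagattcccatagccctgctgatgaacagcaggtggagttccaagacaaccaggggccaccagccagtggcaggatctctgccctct

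The Tomm20 window (chr8:126945872-126946171, minus strand) holds the E-box at position -126 from the start, and the Timm10 window (chr2:84826771-84827070, plus strand) holds the ETS core at position 17 and the E-box at position 29. The Slc25a13 window (chr6:6217124-6217423, minus strand) holds the E-box at -125, and the Slc25a20 window (chr9:108661886-108662185, plus strand) the ETS core at -79. None of the 3 cores occurs in the windows of Timm50 (chr7:28311997-28312296, minus strand) or Slc25a34 (chr4:141623785-141624084, minus strand).

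Matches were counted per gene, and a gene with several windows was counted when any of them held a match. Among the 18 tested importers with a window, the ETS core occurred in 5 (Timm10, Timm10b, Timm23, Timm29 and Tomm70a). The E-box occurred in 4 (Timm10, Timm8a1, Timm9 and Tomm20) and the NRF1 core in 1. Among tested carriers the ETS core occurred in 1 of 31, the E-box in 6 and the NRF1 core in 0. Of all 9431 tested genes with a window, 9.36% held the ETS core, 11.9% the E-box and 6.31% the NRF1 core. Over all 27025 genes with a RefSeq window these shares were 4.31%, 8.09% and 3.05%. Genes with a match were both called and not called: of the 5 importers with the ETS core, Timm10 and Timm10b were called and Timm29 differed by -0.23. These matches describe letters in a window and show no binding.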

How the data were processed

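The members and gene lists were chosen with earlier results of these data known. Per the labels' protocols, total RNA was amplified with a Nugen Pico kit and labelled with biotin. The deposited values are log2 signals that the authors made with MAS5, per the submitters' processing notes. From the values, each array was scaled to a 2% trimmed mean of 500.0, which removes differences in total RNA per cell. The MAS5 version, its detection calls and the genome build were not given in the sources used here.

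Of 45101 probe sets, 64 were controls, 34945 had 1 gene, 932 several and 9160 none. Symbols were updated by Entrez identifier through RefSeq (GRCm38.p6), where 99.1% matched. The brightest probe set was kept per gene, and 11576 of 18193 genes whose mean reached the 40th percentile (log2 signal 6.02) were tested in limma 3.58.1 (lmFit, then eBayes allowing for a mean-variance trend; R 4.3.3). No pseudocount was used. SE values are from this fit and SDs are over arrays. Background was the 95th percentile of 27 absent bacterial control probe sets. Probe sets with the suffix s, x or a can match several transcripts, and 24 of the 67 members were read on one. The fit was tested on simulated data.

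Named genes were every called member, fixed pairs of relatives and up to 3 called genes per direction of each related list, with the other members given by symbol and difference. Alternatives were 2 pseudocounts, 2 scalings, values raised to background, 2 filters, 2 probe set rules, no variance trend, the replicate number as a block and leaving out each array. Figures were drawn with matplotlib 3.10.9.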

Additional observations from a re-analysis of the deposited data

How the results depend on the processing

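Timm17b and Tomm20 were called under all 17 alternatives. With scaling to the hybridisation controls, 3059 genes were higher and 943 lower, against 2004 and 2040 as deposited (76.4% of called genes higher, against 49.6%), with 14 importers and 11 other import genes higher, 1 carrier, 0 other import genes and 2 other transport genes lower. Without s, x and a probe sets 3 carriers were higher and 1 importer lower, Timm10b, which reversed to -1.99 (adjusted p = 0.00550). Carriers lower numbered 8 with values raised to background and 9 with the mean of the probe sets. Other import genes lower numbered 0 without a variance trend. Other transport genes higher numbered 1 under quantile normalization, no filter, no variance trend and the replicate block, and lower 2 with a filter at the 60th percentile. The cause of these shifts was not tested. Leaving out 1 array gave 1313 to 2440 genes higher and 1540 to 2176 lower, 3 to 8 importers, 1 to 6 carriers, 3 to 6 other import genes and 1 to 2 other transport genes higher, and 1 to 6 carriers, 0 to 1 other import genes and 4 to 7 other transport genes lower. The replicate block gave 1955 genes higher and 1979 lower, with 7 importers higher and 6 carriers in each direction. Deviations of same-numbered arrays from their group means correlated at 0.06, -0.02 and 0.03, and 3 of 6 arrays correlated best with their own number, so the numbers were not taken as pairs. Of the comparisons of single members with their alternatives, 895 kept direction and side of the threshold, 52 lost the call, 46 gained one and 41 changed sign, all but Timm10b in members not called. Under hybridisation-control scaling the changed signs were Slc25a11 at 0.55, Slc25a14 at 0.23, Slc25a2 at 0.14, Slc25a25 at 0.20, Slc25a3 at 0.40, Slc25a37 at 0.31, Slc25a38 at 0.17, Slc25a4 at 0.45, Slc25a40 at 0.62, Timm29 at 0.41, Timm44 at 0.49 and Timm8a1 at 0.38. Under quantile normalization they were Slc25a2 at 0.22, Slc25a41 at 0.0250 and Timm17a at -0.0377, and with the mean of the probe sets Slc25a25 at 0.47, Slc25a53 at -0.90, Timm44 at 0.0204 and Timm8a1 at 0.42. Slc25a27 was -0.46 without s, x and a probe sets, and Slc25a47 was -0.0115 and -0.0962 with pseudocounts of 16 and 64. Leaving out 1 array gave Slc25a11 -0.24 to 0.0170, Slc25a22 -0.23 to 1.77, Slc25a23 -0.21 to 0.68, Slc25a27 -0.0913 to 0.33, Slc25a40 -0.46 to 0.20, Slc25a47 -0.997 to 0.74, Slc25a53 -0.37 to 0.40, Timm17a -0.26 to 0.23, Timm21 -0.16 to 0.35 and Timm44 -0.57 to 0.0701. Signals near background limit what can be read for dim members.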

Other observations

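Probe sets shared by several genes gave values for 2 further subunits of the outer-membrane channel complex, which cannot be told apart from the genes annotated with them. The probe set of Tomm5 and Gm8069 read 10.56, 10.71 and 10.27 in activated cells, against 9.63, 8.96 and 9.61 in quiescent cells, a difference of 1.11. Those of Tomm6 and Prickle4 differed by 1.40 and 1.90. On both, the 3 activated arrays were above the 3 quiescent arrays, and no test was made because such probe sets were left out of the fit.

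The 5 members too dim to be tested had adjusted p values of 0.162 to 0.725 when no filter was used. Timm8a2, Slc25a31 and Slc25a48 were at background on all 6 arrays.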
